A study of Mus musculus with 32 samples.

Results

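Atp9a, E330009J07Rik, Hyal1, Myom3, Dot1l, Ephx1, Myo1d, Adam19, Sema4g and Appl2 are 10 of the 45706 genes in the deposited table. They were picked by name because they lay lower in lipopolysaccharide (LPS)-treated cells given a miR-29a mimic than in LPS-treated cells given a scrambled control. The values of the 10 genes in that contrast are therefore given as a description, with no test, and so are those in every contrast that shares its libraries. The open questions were whether the miR-29a mimic also lowered these genes without LPS, whether the other mimics did, and how LPS moved them. BV-2, an immortalised mouse microglial cell line labelled wild type, received both a transfection, with a scrambled control or 1 of 3 microRNA mimics (miR-29a-3p, miR-7a-5p and miR-146a-5p), and vehicle or 10 ng/ml LPS for 24 h. The labels put LPS before the transfection, the study's methods put it after the transfection in a related phagocytosis assay, and the order in the sequenced cells is not settled here. These are 8 groups of 4 total RNA libraries: VEH_scramble and VEH_miR-29a, VEH_miR-7a and VEH_miR-146a without LPS, and LPS_scramble and LPS_miR-29a, LPS_miR-7a and LPS_miR-146a with it. All groups come from this single line. The study's methods describe BV-2 replicates as independent experiments, while the labels only number them. The labels also carry a tumour cell type and mouse ages that a cell line cannot have, and neither was used.

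A microRNA guides the silencing complex to messenger RNAs whose 3′ untranslated region (3′ UTR) pairs with its seed, a short stretch near its 5′ end, and the paired messengers are translated less and decay faster. A mimic is a synthetic duplex that raises the amount of 1 microRNA far above its natural level, and the microRNAs themselves were not measured in these libraries. The miR-29 family is best known for lowering collagens, other matrix genes and the DNA methyltransferase Dnmt3a. LPS, a bacterial cell wall component, activates microglia through Toll-like receptor signalling. In bulk RNA, fewer molecules per cell and fewer cells carrying a transcript cannot be told apart.

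The mature sequences of the 3 mimics' microRNAs show that their seeds (bases 2 to 8, in capitals) differ from each other, so each mimic addresses other sites. They are RefSeq sequences on GRCm38.p6. miR-29a-3p is read from 6:31062673-31062694 on the minus strand, and miR-146a-5p from 11:43374435-43374456 on the minus strand. miR-7a-5p has the same sequence at 7:78888295-78888317 on the plus strand and 13:58392841-58392863 on the minus strand.
miR-29a-3p: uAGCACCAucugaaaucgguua
miR-7a-5p: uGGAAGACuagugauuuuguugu
miR-146a-5p: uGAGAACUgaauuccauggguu

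The seed of miR-29a-3p pairs with the 7 bases TGGTGCT. This motif was searched on the transcript strand of the longest annotated 3′ UTR of each gene, and 3 of the 10 genes held it: E330009J07Rik, Dot1l and Adam19, each at 2 places. Of 11026 tested genes with an annotated 3′ UTR, 15.6% held it. The sites are shown because these are the genes in which the mimic could pair directly with a full seed match, with the match in capitals. They lie in GRCm38 at 6:40406117-40406123 and 6:40402368-40402374 on the minus strand for E330009J07Rik, at 10:80794124-80794130 and 10:80794781-80794787 on the plus strand for Dot1l, and at 11:46144615-46144621 and 11:46145239-46145245 on the plus strand for Adam19.
E330009J07Rik site 1: tcagtgctgaagggTGGTGCTg
E330009J07Rik site 2: aataggacttttttTGGTGCTA
Dot1l site 1: ccagctgggctgagTGGTGCTg
Dot1l site 2: ttcccaccccgcgaTGGTGCTc
Adam19 site 1: gcatccctatcctaTGGTGCTt
Adam19 site 2: gaccttctcttgctTGGTGCTc

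Only site 2 of E330009J07Rik was followed by an A, a form found in 3.15% of the tested genes. Atp9a, Hyal1, Myom3, Ephx1, Myo1d, Sema4g and Appl2 held no 7-base match in this window, which says only that these letters are not there. With the 6 bases GGTGCT, which the 7-base match contains, 7 of 10 genes held a match against 33.7% of tested genes, and Myom3, Ephx1 and Myo1d held none. The 3′ UTRs of the 10 genes ran from 225 bases in Ephx1 to 5364 in E330009J07Rik, with a median of 1482 against 1170 over the tested genes. Matches of the miR-7a-5p seed, GTCTTCC, were in E330009J07Rik, Myo1d and Adam19, 3 of 10 genes against 14% of tested genes. The miR-146a-5p match AGTTCTC was in Dot1l alone, 1 of 10 against 12.5%.

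**Figure D1:**
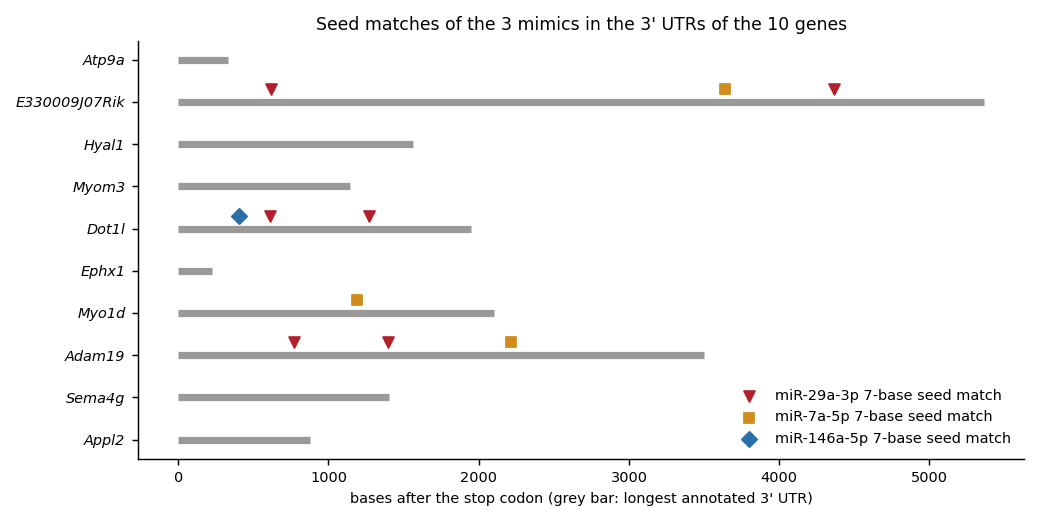
Seed matches of the 3 mimics along the longest annotated 3′ UTR of each gene. The x axis gives bases after the stop codon, grey bars the length of the 3′ UTR, triangles 7-base matches of miR-29a-3p, squares those of miR-7a-5p and the diamond that of miR-146a-5p. miR-29a-3p matches stand in E330009J07Rik, Dot1l and Adam19 only.

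Levels are CPM, that is counts scaled to a common library size, on a single scale over the 32 libraries, and fold changes are log2 values with their standard error (SE). Counts outside structural RNA genes came to 760576 in VEH_miR-7a replicate 4, where 3 counts are 4.17 CPM, and to 19994488 in LPS_scramble replicate 4, where 3 counts are 0.1475 CPM. Vehicle libraries were the shallower ones, with means of 5562688 in VEH_scramble and 5341685 in VEH_miR-29a against 12260121 in LPS_scramble and 10375650 in LPS_miR-29a. VEH_miR-7a averaged 2112044 counts, and structural RNA took 50.3%, 49.9% and 50.7% of the counts in its replicates 2, 3 and 4. Of the microglial markers, Cx3cr1 and C1qa, both defining genes of microglia, were low, with medians of 0.662 and 0.417 CPM and 0 counts in 5 and 6 libraries. All others of that list were found in every library, with medians from 11.9 CPM for Aif1 to 935.4 for Cd68. Csf1r ran from 319.8 to 1148 CPM. The summed level of 13 microglia and macrophage markers was 3231 to 4124 CPM in LPS_miR-29a and 4349 to 5033 in LPS_scramble, with no overlap, and its part in the results under LPS was not tested. In vehicle the same sum was 4676 to 5053 CPM with miR-29a and 4731 to 6290 with scramble, and these ranges overlapped. Summed markers of astrocytes, neurons and fibroblasts stayed within a few CPM, and those of oligodendrocytes reached 19.5 CPM in VEH_miR-7a.

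All 10 genes had their lowest mean of the 8 groups in LPS_miR-29a, whose values chose them, so nothing is read from this count. In that group Atp9a and Adam19 stood at 13.6% and 13.8% of the LPS_scramble mean, Sema4g at 21.8%, E330009J07Rik at 25.8% and Hyal1 at 30.2%. Myom3, Ephx1 and Dot1l stood at 43.9%, 45.5% and 49.8%, and Myo1d and Appl2 at 54.0% and 54.6%. Without LPS the share of the VEH_scramble mean that remained with miR-29a was 33.3% for Atp9a, 39% for E330009J07Rik and 39.3% for Adam19. It was 60.6% for Dot1l, 66.0% for Ephx1, 67.1% for Sema4g, 67.6% for Hyal1 and 80.7% for Myo1d. Myom3 and Appl2 lay above their control in vehicle, at 114% and 117%.

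**Figure D2:**
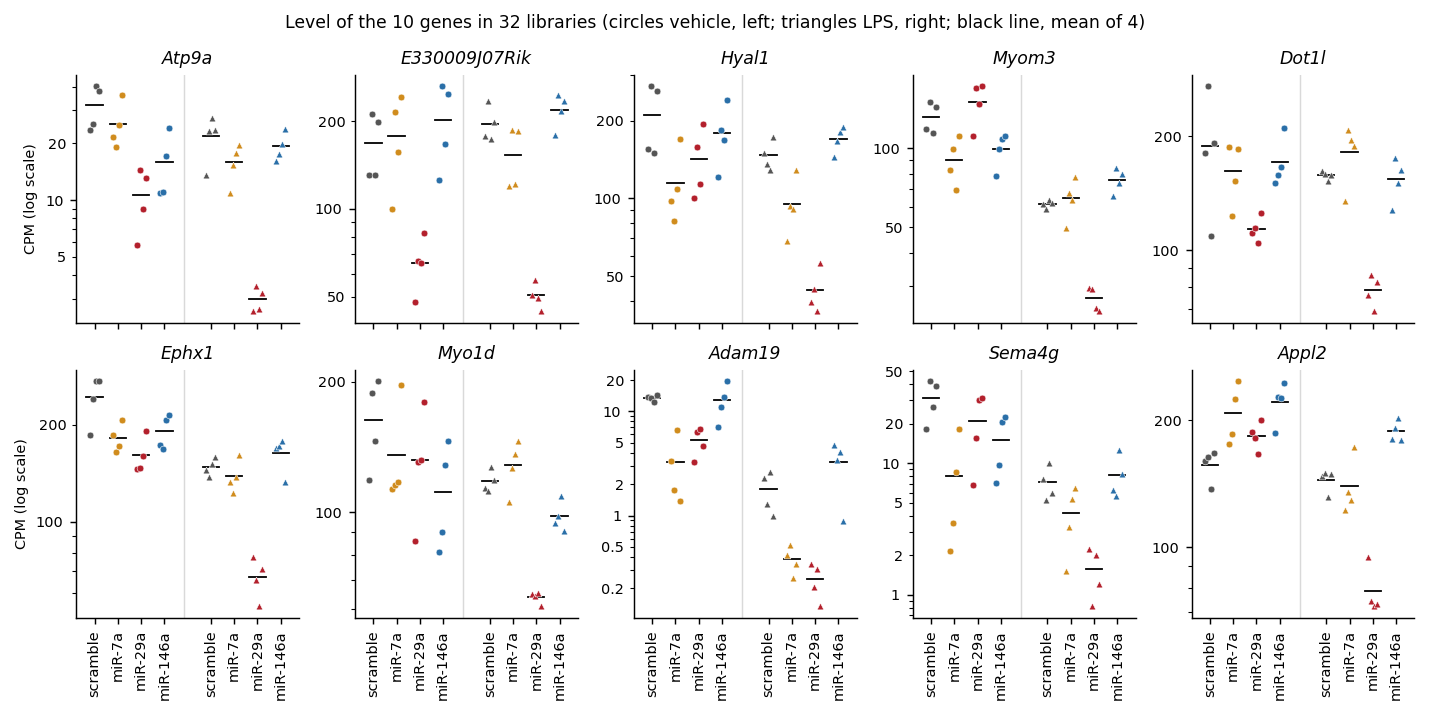
Level of each gene in every library, in CPM on a log axis whose range differs between panels. Circles are vehicle libraries and triangles LPS libraries, coloured by mimic, and black lines are means of 4 libraries. In the contrast that chose the genes, the LPS_miR-29a libraries lie below the LPS_scramble libraries in every panel. In vehicle the same holds for Atp9a, E330009J07Rik and Adam19 alone.

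Atp9a encodes a P4-type ATPase of endosomes and the Golgi, from the family that flips phospholipids across membranes, and works in endosomal recycling. In vehicle it was at 23.5, 25.3, 40.5 and 38.1 CPM in replicates 1 to 4 with scramble and at 5.76, 14.5, 8.94 and 13.2 CPM with miR-29a. With LPS it was at 13.6, 23.4, 27.2 and 23.7 CPM with scramble and at 2.58, 3.49, 2.64 and 3.23 CPM with miR-29a. The miR-29a libraries lay below all control libraries in both conditions. The group means ran from 2.98 CPM in LPS_miR-29a over 10.6 in VEH_miR-29a, 15.9 in VEH_miR-146a, 15.99 in LPS_miR-7a, 19.4 in LPS_miR-146a, 21.96 in LPS_scramble and 25.5 in VEH_miR-7a to 31.8 in VEH_scramble. Only the lowest group stood clear of its neighbour in this order, and all other neighbours overlapped.

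E330009J07Rik, which is named for its cDNA clone, lay at a higher level, and its miR-29a libraries also lay below all control libraries in both conditions. In vehicle it was at 131, 212, 131 and 199 CPM with scramble and at 48.0, 66.3, 65.1 and 82.7 CPM with miR-29a. LPS libraries had it at 178, 234, 173 and 198 CPM with scramble and at 50.7, 57.3, 49.8 and 44.7 CPM with miR-29a. The miR-29a ranges with and without LPS overlapped, at 48.0 to 82.7 CPM in vehicle and 44.7 to 57.3 CPM under LPS. Adam19, a membrane-anchored metalloprotease, was at 13.7, 13.4, 12.2 and 14.5 CPM in VEH_scramble and at 3.29, 6.38, 6.75 and 4.68 CPM in VEH_miR-29a. It was already low with LPS and scramble, at 2.27, 1.29, 2.64 and 0.984 CPM, and fewer than 6 counts per library were left in LPS_miR-29a (2, 3, 5 and 1 counts, or 0.343, 0.205, 0.307 and 0.1345 CPM). Its value under LPS thus rests on few reads, while in vehicle the 4 libraries given miR-29a lay below all controls on 12, 18, 37 and 43 counts.

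Hyal1, a lysosomal hyaluronidase, was at 156, 273, 150.1 and 259.7 CPM in VEH_scramble and at 101, 158, 113 and 195 CPM in VEH_miR-29a. Under LPS its levels were 149.5, 136, 129 and 173.5 CPM with scramble and 39.6, 44.8, 36.6 and 56.4 CPM with miR-29a. The ranges overlapped in vehicle, although each replicate number had the lower value with miR-29a, and were far apart under LPS. Hyal1 lies at 9:107576927-107581710 (GRCm38, plus strand) and overlaps Naa80 and Hyal3 on its strand and Gm16343 on the other, and all 32 of its values were estimates with decimals. Ephx1, the microsomal epoxide hydrolase, was at 186, 241, 274 and 273 CPM in VEH_scramble and at 145.5, 147, 159 and 191 CPM in VEH_miR-29a. With LPS it was at 145, 138, 151.5 and 158.5 CPM with scramble and at 77.8, 65.8, 54.5 and 71.3 CPM with miR-29a. In vehicle only the highest miR-29a library reached into the control range, and under LPS none did.

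Dot1l, a histone methyltransferase of active genes, was at 181, 272, 109 and 192 CPM in VEH_scramble and at 111, 115, 104.5 and 126 CPM in VEH_miR-29a. LPS libraries had it at 162, 159, 152 and 158 CPM with scramble and at 76.4, 86.1, 69.1 and 82.5 CPM with miR-29a. Replicate 3 of VEH_scramble sat among the miR-29a libraries, so the vehicle ranges overlapped. Myo1d, an unconventional myosin motor at membranes, was at 119, 188, 146.1 and 201 CPM in VEH_scramble and at 85.9, 131, 132 and 179.5 CPM in VEH_miR-29a. Under LPS its levels were 114, 112, 127 and 119 CPM with scramble and 64.7, 64.0, 65.3 and 60.8 CPM with miR-29a. Its vehicle ranges overlapped widely, and its LPS ranges did not. Sema4g, a transmembrane semaphorin, was at 18.2, 42.3, 26.6 and 38.4 CPM in VEH_scramble and at 6.86, 15.6, 30.3 and 31.5 CPM in VEH_miR-29a. With LPS it was at 7.56, 5.29, 10.1 and 5.90 CPM with scramble and at 2.23, 0.821, 2.03 and 1.21 CPM with miR-29a. The vehicle libraries of Sema4g scattered over a wide range in both groups.

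Myom3 and Appl2 behaved differently in vehicle. Myom3, a myomesin that crosslinks thick filaments in the M-band of muscle, was at 118, 149.6, 114 and 143 CPM in VEH_scramble and at 111, 169.5, 147 and 172 CPM in VEH_miR-29a. LPS libraries had it at 61.2, 58.6, 63.7 and 61.9 CPM with scramble and at 29.5, 29.4, 24.8 and 24.1 CPM with miR-29a. Appl2, an adaptor protein of early endosomes, was at 160.0, 163, 137 and 167 CPM in VEH_scramble and at 187.5, 181, 166 and 200.4 CPM in VEH_miR-29a. Under LPS its levels were 147, 149.9, 131 and 149 CPM with scramble and 94.95, 74.5, 72.4 and 73.3 CPM with miR-29a. With LPS both genes lay below all controls in the 4 libraries given miR-29a. In vehicle the ranges overlapped for both, with Appl2 higher in each same-numbered pair of libraries and Myom3 higher in 3 of 4, replicate 1 being the lower.

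The first comparison asked which of the genes the miR-29a mimic lowered without LPS, in libraries outside the contrast that chose the genes. The genes were picked with earlier results of these data known, so this test is not shown to be independent of the choice. A gene was called when limma gave it an adjusted p under 0.05 and its log2 fold change lay beyond 0.3 in size, with Benjamini-Hochberg adjustment over 11500 genes. None of the 10 genes was called, and 1 gene in the whole table was called lower (0.00870%), the cathepsin Ctsk, with a log2 fold change of -1.66 ± 0.207 (SE) and a limma adjusted p of 0.0265. At an unadjusted p under 0.05, 6 of the 10 genes lay lower, as 5.66% of all genes did. Atp9a had the log2 fold change furthest from 0 of the 10, -1.62 ± 0.293 (limma adjusted p = 0.0954), followed by Adam19 at -1.41 ± 0.249 (limma adjusted p = 0.0841) and E330009J07Rik at -1.35 ± 0.217 (limma adjusted p = 0.0841). These 3 of 10 genes had all 4 miR-29a libraries below all 4 controls, against 2.97% of the genes tested.

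The replicate numbers paired these 2 groups, since libraries of the same number deviated together (correlation 0.193 to 0.479), and with the number as a block 5 of 10 genes were called lower, against 0.861% of all genes. They were E330009J07Rik (log2 fold change -1.36, limma adjusted p = 0.00585), Atp9a (-1.65, limma adjusted p = 0.0155), Adam19 (-1.40, limma adjusted p = 0.0302), Ephx1 (-0.61, limma adjusted p = 0.0426) and Hyal1 (-0.58, limma adjusted p = 0.0428). The DESeq2 test without the block called 3 of 10, again Atp9a, E330009J07Rik and Adam19, against 0.470% of all genes, and edgeR's quasi-likelihood test called 0. Without VEH_scramble replicate 1, E330009J07Rik passed the unblocked limma test with an adjusted p of 0.0456, where 0.0522% of all genes were called lower.

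The other 5 genes were not called by any of these fits. Dot1l had a log2 fold change of -0.67 (95% interval -1.17 to -0.17), Sema4g of -0.61 (-1.52 to 0.29) and Myo1d of -0.34 (-0.84 to 0.16). Myom3 stood at 0.16 (-0.22 to 0.55) and Appl2 at 0.21 (-0.10 to 0.52). Leaving out single libraries moved Sema4g between -0.94 and -0.20, Myo1d between -0.50 and -0.15 and Myom3 between 0.09 and 0.31, and in each the value without VEH_miR-29a replicate 1 was the highest and that without VEH_miR-29a replicate 4 the lowest.

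**Figure D3:**
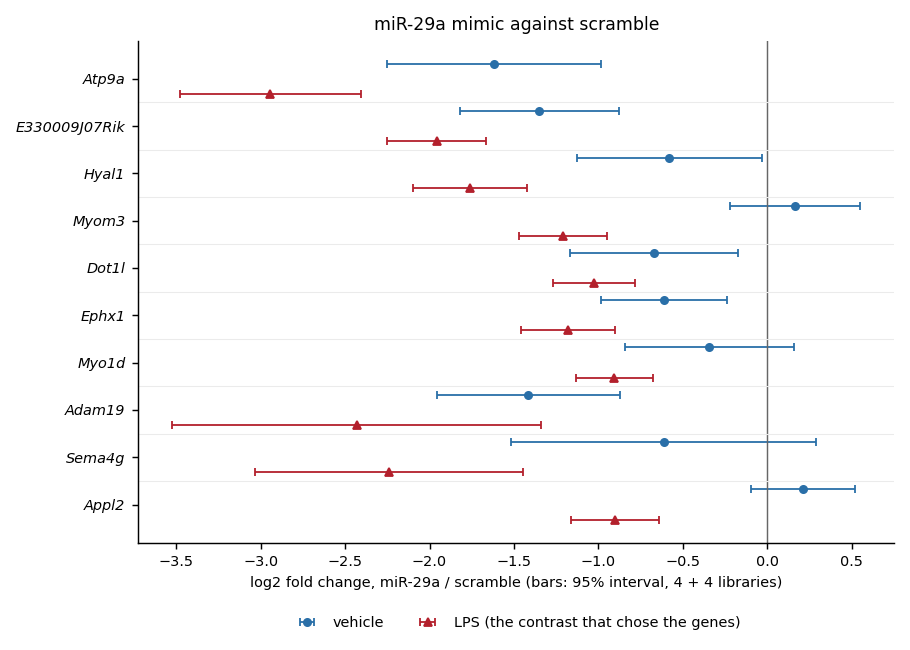
Log2 fold change of miR-29a against scramble for each gene, with 95% intervals from limma over 4 and 4 libraries. Circles are vehicle and triangles are LPS, the contrast that chose the genes. Under LPS all 10 points lie between -2.94 and -0.90, and in vehicle they run from -1.62 to 0.21.

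Under LPS, the contrast that chose them, the 10 genes had log2 fold changes of -2.94 ± 0.246 (SE) for Atp9a, -2.43 ± 0.5 for Adam19, -2.24 ± 0.363 for Sema4g and -1.96 ± 0.133 for E330009J07Rik. That of Adam19 rests on few reads. Hyal1 stood at -1.76 ± 0.155, Myom3 at -1.21 ± 0.12, Ephx1 at -1.18 ± 0.128, Dot1l at -1.03 ± 0.110, Myo1d at -0.91 ± 0.104 and Appl2 at -0.90 ± 0.12. All 10 had separate ranges, as 6.11% of 13158 genes had, and since these values chose the genes, nothing is read from that count.

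The difference between the LPS and the vehicle effect of miR-29a also holds the choosing contrast and is given as a description. It was furthest from 0 for Sema4g at -1.67 (95% interval -3.11 to -0.23), Myom3 at -1.38 (-1.82 to -0.94), Atp9a at -1.32 (-2.15 to -0.49), Hyal1 at -1.19 (-1.86 to -0.51) and Appl2 at -1.11 (-1.48 to -0.75). Adam19 stood at -1.02 (-2.17 to 0.12), E330009J07Rik at -0.62 (-1.17 to -0.07), Myo1d at -0.58 (-1.14 to -0.02), Ephx1 at -0.57 (-1.01 to -0.13) and Dot1l at -0.36 (-0.93 to 0.20).

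The vehicle libraries also allow the mimics to be compared with each other. Against miR-7a, 2 of 10 genes were lower with miR-29a, where 1.17% of all genes were lower. Atp9a, at 21.7, 19.3, 25.01 and 36.2 CPM in VEH_miR-7a, differed by -1.19 ± 0.290 on the log2 scale (limma adjusted p = 0.0454). E330009J07Rik, at 99.9, 214, 157 and 242 CPM in VEH_miR-7a, differed by -1.28 ± 0.253 (limma adjusted p = 0.0181). For both genes all libraries given miR-29a lay below all libraries given miR-7a. The share of all genes so separated is not given, and nothing is read from it. Myom3, at 82.4, 98.9, 69.1 and 111 CPM in VEH_miR-7a, was higher with miR-29a by 0.77 ± 0.19 (limma adjusted p = 0.0468), where 1.16% of all genes were higher. Leaving out single libraries ended the call of Atp9a in 6 of 8 cases (all but VEH_miR-29a replicates 2 and 4, highest limma adjusted p 0.126), that of Myom3 in 6 (all but VEH_miR-29a replicate 1 and VEH_miR-7a replicate 4, highest 0.15) and that of E330009J07Rik in 3 (VEH_miR-29a replicate 3 and VEH_miR-7a replicates 2 and 3, highest 0.0768). Over all genes the share called lower ran from 0.106% without VEH_miR-7a replicate 2 to 1.77% without VEH_miR-29a replicate 1. The call of Atp9a also ended with edgeR's quasi-likelihood test (adjusted p = 0.0504), with no filter on low counts (limma adjusted p = 0.0643) and with structural RNA genes kept in (limma adjusted p = 0.0687). That of Myom3 ended with edgeR (adjusted p = 0.0574) and with structural RNA genes kept in (limma adjusted p = 0.0687).

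Against miR-146a, 3 of 10 genes were lower with miR-29a, where 2.07% of all genes were lower. E330009J07Rik, at 126, 264, 167 and 247 CPM in VEH_miR-146a, differed by -1.62 ± 0.229 (limma adjusted p = 0.00556), and it stayed past the threshold whichever library was left out. Dot1l, at 150.3, 158, 166 and 211 CPM in VEH_miR-146a, differed by -0.61 ± 0.135 (limma adjusted p = 0.0301). Adam19, at 7.09, 10.9, 13.7 and 19.6 CPM in VEH_miR-146a, differed by -1.43 ± 0.323 (limma adjusted p = 0.0324). In these 3 genes no library given miR-29a reached the range of miR-146a, a separation whose share over all genes is not given and from which nothing is read. The call of Dot1l held only without VEH_miR-29a replicate 4 (highest limma adjusted p of the 8 cases 0.107), and that of Adam19 only without VEH_miR-146a replicate 1 (highest 0.0908). Single libraries left out moved the share of all genes between 0.298% (without VEH_miR-29a replicate 3) and 2.47% (without VEH_miR-146a replicate 4). The replicate numbers paired these groups too (correlation 0.105 to 0.393), and with the block Hyal1 was also lower (-0.37, limma adjusted p = 0.0333) and Myom3 higher (0.57, limma adjusted p = 0.00642), so that 4 genes were lower against 7.46% of all genes and 1 was higher against 6.12%. Atp9a was not called against miR-146a in vehicle (-0.67 ± 0.315, limma adjusted p = 0.226).

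By limma without a block, E330009J07Rik was the gene among the 10 called lower with miR-29a against both other mimics in vehicle. DESeq2 called Dot1l as well as E330009J07Rik lower against both, among 3 of 10 genes in each comparison, where it called 2.30% of all genes lower against miR-7a and 4.70% against miR-146a. The comparisons share the VEH_miR-29a libraries. The next comparisons, of the other mimics with scramble, share the VEH_scramble libraries with the test of miR-29a.

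With miR-7a in vehicle, Adam19 and Sema4g were lower than with scramble, 2 of 10 genes where 0.280% of all genes were called lower. Adam19 was at 3.35, 1.75, 6.58 and 1.39 CPM in VEH_miR-7a, from 17, 2, 10 and 1 counts, and its log2 fold change was -1.98 ± 0.403 (limma adjusted p = 0.0483). In replicates 2 and 4 it lay below the level of 3 counts (2.63 and 4.17 CPM). It passed the filter on low counts through VEH_scramble, so this call and the size of the change rest on few reads. Sema4g was at 2.17, 3.50, 8.56 and 18.1 CPM in VEH_miR-7a, from 11, 4, 13 and 13 counts, and its log2 fold change was -2.84 ± 0.522 (limma adjusted p = 0.0358), which moved to -1.84 without VEH_miR-7a replicate 1. In this shallowest group of the series, 3 of the 10 genes (Adam19, Sema4g and Myom3) had all libraries below all controls, and Appl2 had all above. The share over all genes is not given here, so nothing is read from these counts. For Sema4g the nearest libraries lay at 18.1 and 18.2 CPM. The calls of Adam19 and Sema4g were both lost when any library but VEH_scramble replicate 1 was left out (limma adjusted p up to 0.184 and 0.196). Both were also lost when structural RNA genes were kept in the library sizes. The share of all genes called lower ran from 0% without VEH_miR-7a replicate 2 to 0.740% without VEH_scramble replicate 1. The other 8 genes were not called without the block. Hyal1 had the next strongest difference, -0.90 ± 0.253 (limma adjusted p = 0.161), and E330009J07Rik was at 0.01 ± 0.270. With the replicate block, though the numbers did not pair these groups, Hyal1 was past the threshold (-0.83, limma adjusted p = 0.0453). The share over all genes is not given for that fit.

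With miR-146a in vehicle none of the 10 genes was called, where 1.22% of all genes were lower. By unadjusted p under 0.05, 4 of the genes lay lower, where 12.7% of all genes did, and 1 higher, where 12.3% did. The share of 1.22% became 0% without VEH_miR-146a replicate 3 and 4.65% without VEH_scramble replicate 1. DESeq2 called 2 lower (4.76% of all genes) and 1 higher (5.41%), and edgeR's quasi-likelihood test called 0. Atp9a stood at a log2 value of -0.94 ± 0.28 (limma adjusted p = 0.0767) and Appl2 at 0.51 ± 0.145 (limma adjusted p = 0.0697). Adam19, by contrast with its value with miR-7a, stood at -0.01 ± 0.255.

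**Figure D4:**
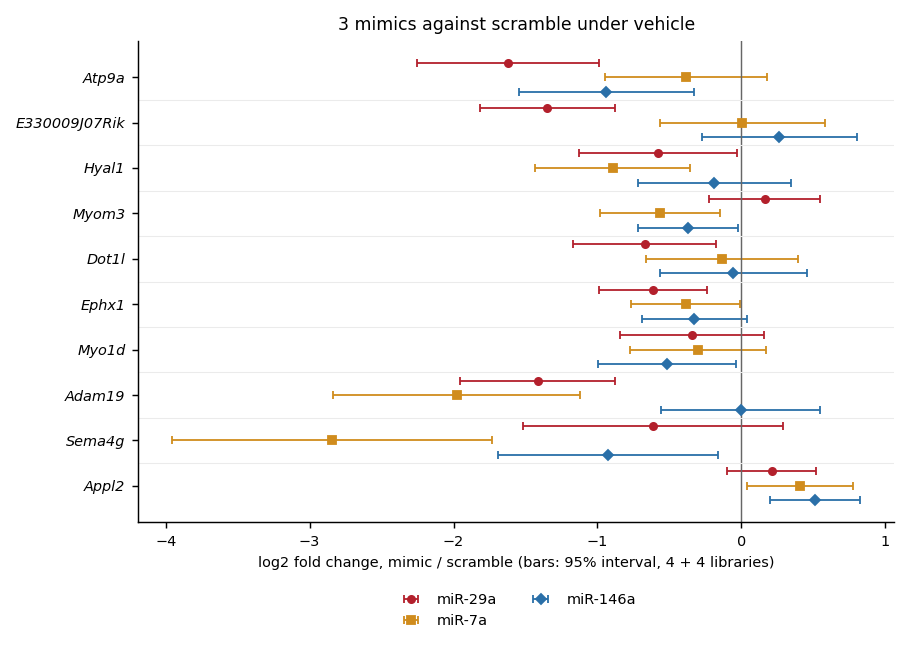
Log2 fold change of each mimic against scramble in vehicle, with 95% intervals from limma over 4 and 4 libraries. Circles are miR-29a, squares miR-7a and diamonds miR-146a, and the 3 share their control libraries. E330009J07Rik lies at -1.35 with miR-29a and at 0.01 and 0.26 with the others, whereas Adam19 and Sema4g lie lowest with miR-7a.

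Under LPS the same comparisons share libraries with the choosing contrast and are given as values. Against miR-7a, the log2 differences of 9 genes with miR-29a ran from -2.41 ± 0.244 for Atp9a to -0.84 ± 0.151 for Appl2. Against miR-146a they ran from -2.66 ± 0.240 for Atp9a to -0.65 for Myo1d. Adam19 had too few counts to enter either fit. With miR-7a against scramble, Adam19 had the value furthest from 0, at -1.91 ± 0.457. It entered that fit only through LPS_scramble, and the size of this value rests on few reads. With miR-146a against scramble, the log2 fold changes ran from -0.30 for Atp9a to 1.18 for Adam19. In LPS_miR-7a Adam19 was at 0.416, 0.525, 0.2498 and 0.339 CPM, from 3, 5, 3 and 4 counts, and its range overlapped that of LPS_miR-29a.

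LPS itself was compared with vehicle in the cells given miR-7a or miR-146a, whose libraries lie outside the contrast that chose the genes. In miR-7a cells 0 of the 9 tested genes were called, where 3.93% of all genes were lower, although 4 lay lower at an unadjusted p under 0.05, as 10.4% of all genes did. DESeq2 called 1 lower (5.62% of all genes) and edgeR's quasi-likelihood test 0. The share of 3.93% moved between 2.05% without VEH_miR-7a replicate 3 and 4.64% without LPS_miR-7a replicate 1. Appl2 came nearest, at -0.56 ± 0.163 (limma adjusted p = 0.0545), and Adam19 was not tested because of its low counts. In miR-146a cells Adam19 was lower with LPS, 1 of 10 genes where 1.52% of all genes were lower. It went from 7.09, 10.9, 13.7 and 19.6 CPM in vehicle to 4.71, 3.40, 4.03 and 0.884 CPM with LPS, a difference of -1.99 ± 0.407 on the log2 scale (limma adjusted p = 0.0129). The groups did not overlap, for which no share over all genes is given. The call held with any single library left out, where 0.693% (without VEH_miR-146a replicate 3) to 1.19% (without VEH_miR-146a replicate 4) of all genes were lower. Sema4g stood at -1.01 ± 0.364 (limma adjusted p = 0.154) and Myom3 at -0.43 ± 0.140 (limma adjusted p = 0.111) in these cells.

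In scramble cells, as a description, the differences of LPS from vehicle were furthest from 0 for Adam19 at -3.14 ± 0.299, Sema4g at -2.10 ± 0.299, Myom3 at -1.08 ± 0.141 and Ephx1 at -0.70 ± 0.154. Atp9a stood at -0.45 ± 0.226 and E330009J07Rik at 0.25 ± 0.192. In miR-29a cells the differences ran from -4.17 ± 0.436 for Adam19 to -0.55 ± 0.128 for Dot1l and -0.39 ± 0.169 for E330009J07Rik. Adam19 entered this fit only through VEH_miR-29a, with 2, 3, 5 and 1 counts in LPS_miR-29a, so the size of its difference is not exact.

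**Figure D5:**
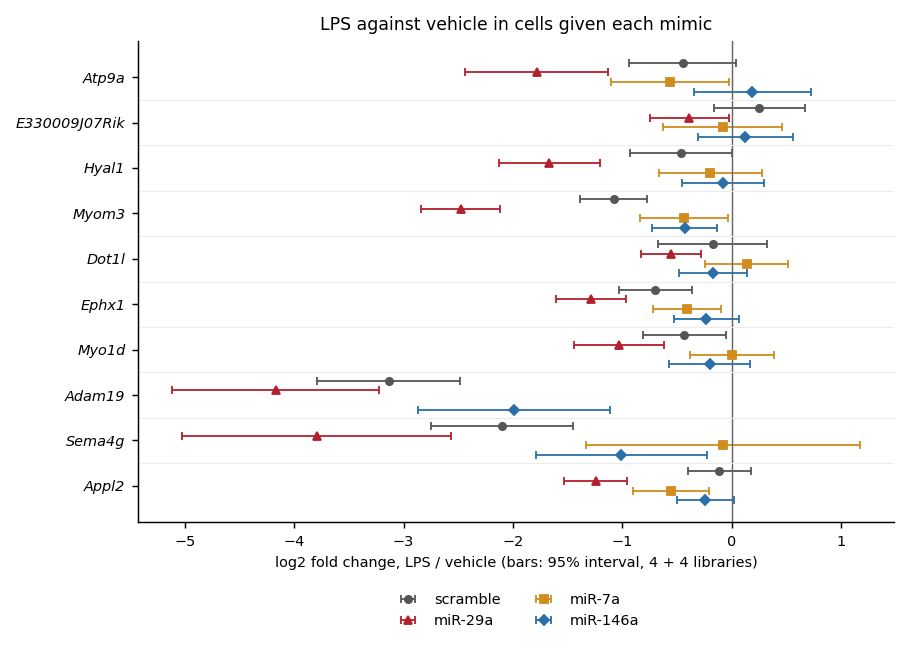
Log2 fold change of LPS against vehicle in the cells given each mimic, with 95% intervals from limma over 4 and 4 libraries. Grey circles are scramble, red triangles miR-29a, yellow squares miR-7a and blue diamonds miR-146a. The miR-29a point lies lowest for every gene, but its LPS libraries took part in choosing the genes. Adam19 has no point for miR-7a because it was not tested there.

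To place the 10 genes among other genes that miR-29 or their own families would bring to mind, lists of them were described in the same way. Of 30 genes widely described as miR-29 targets, 18 were tested in vehicle and limma called 0, while 5 lay lower at an unadjusted p under 0.05 (5.66% of all genes). Their median log2 fold change was -0.15, against -0.61 for the 10 genes and -0.01 for all genes tested. Dnmt3a, at 189 to 265 CPM in VEH_miR-29a and 313 to 484.5 in VEH_scramble, differed by -0.84 ± 0.177 on the log2 scale (limma adjusted p = 0.128), and with the replicate block 3 of the 18 were called lower, where 0.861% of all genes were: Dnmt3a (limma adjusted p = 0.0241), Hbp1, a transcriptional repressor, and Lamc1, a laminin chain. Under LPS 5 of 20 were past the threshold with miR-29a lower, where 3.02% of all genes were (0.972% without LPS_scramble replicate 4 and 3.51% without LPS_miR-29a replicate 2): Dnmt3a at -1.32 ± 0.106, Tet3, a 5-methylcytosine oxidase, at -0.78 ± 0.116, Lamc1 at -0.78 ± 0.124, the DNA glycosylase Tdg at -0.50 ± 0.132 and Hbp1 at -0.48 ± 0.111. With the block this count was 9 of 20, where 10.8% of all genes were lower. In vehicle, miR-29a against miR-7a had 2 of 19 of these targets called lower and 2 higher by limma, where 1.17% and 1.16% of all genes were. Against miR-146a 6 of 19 were called lower and 0 higher, where 2.07% of all genes were lower. Dnmt3a was among those lower in both (limma adjusted p = 0.0132 and 0.00586).

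Relatives and partners of the 10 genes were described alike. In vehicle limma called 0 of 52 tested (3 lay lower and 4 higher at an unadjusted p under 0.05, as 5.66% and 4.96% of all genes did), and 1 higher with the block (0.617% of all genes). Under LPS 4 of 55 were lower and 0 higher, where 3.02% and 2.17% of all genes were: Hexa and Gusb, lysosomal enzymes of the hyaluronan list, at -0.71 ± 0.159 and -0.62 ± 0.102, the myosin Myo1c at -0.57 ± 0.136 and the protease Adam17 at -0.57 ± 0.15. With the block 7 were lower and 2 higher, where 10.8% and 9.12% of all genes were. Among 13 tested flippases and partners of the family of Atp9a, none was past the threshold without the block, and the flippase Atp8b2 was lower with it. Without the block the same holds for 8 genes of the DOT1L complex, 7 of APPL endosomes and 7 of the semaphorins and their receptors, of which Rab5a, an endosomal GTPase of the APPL list, was higher with it.

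Over the 32 libraries, the genes whose log2 level followed that of Atp9a most closely among 10378 genes were Erp29, a chaperone of the endoplasmic reticulum (Pearson r = 0.907), Ephx1 (0.854), Pigt, of the enzyme complex that attaches GPI anchors (0.851), Ifi30, a lysosomal thiol reductase (0.849), and Dnmt3a (0.834). Spearman's rho was 0.793 for Erp29, 0.646 for Ephx1, 0.819 for Pigt, 0.752 for Ifi30 and 0.603 for Dnmt3a. The order of these genes thus depends on the measure, and the closest genes by rho are not given. All these values are descriptions over libraries that share the 8 groups, mimics and depth. The libraries include LPS_miR-29a and LPS_scramble, whose values chose Atp9a, Ephx1 and the other genes described here, so nothing is read from their r. Of the other genes described here, Myo1d, E330009J07Rik, Hyal1 and Dot1l had r of 0.796, 0.789, 0.787 and 0.775. Appl2, Myom3 and Sema4g had 0.666, 0.643 and 0.611, and Adam19 was left out by the filter on low counts.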

How the data were processed

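Total RNA libraries of BV-2 cells were depleted of ribosomal RNA and read with a kit for whole transcripts. The deposited values are estimated counts per gene, which the authors made with the nf-core rnaseq pipeline (GRCm38; limma and edgeR are named in the submitters' processing notes). The decimal marks of these values had been lost. They were restored with a model of each gene's level over the libraries: 30.7% of 590874 values above 0 were given decimals, nearly all with 3, and 1.80% stayed uncertain (posterior under 0.9), none of them in the 10 genes. A fit skipped each gene that had such a value in its libraries. Structural RNA genes (2.64% to 50.7% of counts) were kept out of library sizes and tests.

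The 10 genes and the gene lists were chosen with earlier results of these data known. All 10 were named, and of the lists the members past the threshold under LPS plus Dnmt3a; Ctsk was named after its value was seen. Genes were filtered with edgeR 4.0.16 (filterByExpr), scaled by TMM and tested with limma 3.58.1 (voom, eBayes), on the 8 libraries of each pair of groups and 16 for the difference, with Benjamini-Hochberg adjustment over all genes. Two-sided tests were used. DESeq2 1.42.0, edgeR's quasi-likelihood test, DESeq2 size factors, no filter, the values as deposited, a posterior minimum of 0.99, single libraries left out and a block on replicate number were alternatives; 2 more, structural genes kept in and calls by adjusted p alone, were chosen after seeing the data. Replicate numbers, which come from the labels, were held to pair 2 groups where the deviations of every same-numbered pair of libraries correlated above 0.1; the labels do not say what a number marks. Scripts were tested on simulated data. R 4.3.3 and Python 3.11.15 were used. All intervals cover limma's spread between libraries.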

Additional observations from a re-analysis of the deposited data

Results flagged for a closer look

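Of 80 combinations of gene and group, 3 held a library far from the other 3 of its group by Dixon's ratio, and chance gives about 1 in 20. Myo1d was high in VEH_miR-7a replicate 4, at 196 CPM. Appl2 was high in LPS_miR-29a replicate 1, at 94.95 CPM, and low in LPS_scramble replicate 3, at 131 CPM.

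For some genes every same-numbered pair of libraries moved in opposite directions with and without LPS. With miR-29a against scramble, Appl2 had a log2 fold change of 0.21 in vehicle and -0.90 with LPS. The LPS values of miR-29a against scramble chose the genes, so this difference is a description, and the differences that follow were not tested. With miR-29a against miR-7a, Hyal1 had 0.37 in vehicle and -1.11 with LPS, and Myom3 had 0.77 and -1.28. With miR-29a against miR-146a, Myom3 had 0.53 in vehicle and -1.51 with LPS, and Myo1d had 0.19 and -0.65. With miR-146a against scramble, Myom3 had -0.37 in vehicle and 0.31 with LPS.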

How the results depend on the processing

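The count of the 10 genes called for miR-29a against scramble in vehicle was 0, and moved to 5 with the replicate block, 3 with the DESeq2 test and 1 with no filter on low counts. With the replicate block 3 genes were called for miR-146a against scramble (main count 0), 5 for miR-29a against miR-7a (main count 3), 5 for miR-29a against miR-146a (main count 3), 1 for LPS in miR-7a cells (main count 0) and 3 for LPS in miR-146a cells (main count 1). The block also raised the shares of all genes called lower and higher, to 6.01% and 5.57%, 3.36% and 2.88%, 7.46% and 6.12%, 5.60% and 4.04%, and 4.53% and 5.18% in the order of these comparisons. The numbers did not pair the groups for miR-7a or miR-146a against scramble in vehicle (lowest correlations -0.132 and 0.0678), for miR-29a against miR-7a in either condition (0.0312 and 0.0357) or for LPS in miR-7a and miR-146a cells (0.0533 and 0.0808). The DESeq2 test called 3 for miR-146a against scramble and 1 for LPS in miR-7a cells, where no filter gave 2, and edgeR's quasi-likelihood test called 1 for miR-29a against miR-7a. DESeq2 size factors gave 1 for miR-7a against scramble (main count 2). Structural RNA genes kept in, chosen after seeing the data, gave 0 for that comparison and 1 for miR-29a against miR-7a. Without a filter the median for miR-29a against miR-146a with LPS was -1.74 (main -1.51). With a 6-base match in place of 7, 7, 6 and 4 genes matched miR-29a-3p, miR-7a-5p and miR-146a-5p. Causes of these changes were not tested.

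Leaving out single libraries gave counts of 0 to 1 (miR-29a against scramble in vehicle), 0 to 2 (miR-7a), 0 to 2 (miR-146a), 0 to 3 (miR-29a against miR-7a), 1 to 2 (miR-29a against miR-146a) and 0 to 1 (LPS in miR-7a cells), and medians of -1.54 to -1.40 (miR-29a against scramble with LPS) and -1.79 to -1.46 (against miR-146a with LPS). Signs turned for values near 0. For miR-7a against scramble in vehicle these were E330009J07Rik (-0.15 to 0.32, -0.10 with no filter, -0.005 at a posterior minimum of 0.99) and Dot1l (-0.365 to 0.069). For miR-146a against scramble they were Dot1l (-0.27 to 0.14) and Adam19 (-0.203 to 0.092, 0.052 with the block, 0.012 with DESeq2 size factors, 0.003 with edgeR, 0.019 with DESeq2). For miR-29a against miR-7a it was Myo1d (-0.16 to 0.22, -0.080 with the block, -0.026 with edgeR, -0.045 with DESeq2). For LPS in miR-7a cells they were E330009J07Rik (-0.418 to 0.064, 0.03 with no filter), Sema4g (-1.04 to 0.31) and Myo1d (-0.087 to 0.133, -0.059 with the block, -0.073 with edgeR, -0.079 with DESeq2, -0.001 at a posterior minimum of 0.99). For LPS in miR-146a cells they were E330009J07Rik (-0.007 to 0.303) and Hyal1 (-0.185 to 0.068).

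The values as deposited, without restored decimal marks, called 0 genes for miR-7a against scramble, for miR-29a against miR-7a and against miR-146a in vehicle and for LPS in miR-146a cells, and 1 for LPS in miR-7a cells. Their medians were -1.85 (miR-29a against scramble with LPS), -0.62 (miR-7a), 0.041 (miR-146a), -2.01 (miR-29a against miR-146a), -0.83 (LPS in scramble cells) and -2.22 (LPS in miR-29a cells). Reversed log2 values were E330009J07Rik 1.36, Dot1l 1.10, Ephx1 2.16, Sema4g 0.15 and Appl2 -1.60 for miR-29a against scramble in vehicle, and E330009J07Rik 0.59 and Hyal1 0.01 with LPS. For miR-7a against scramble in vehicle they were E330009J07Rik -1.90, Dot1l 3.00 and Appl2 -3.66, and for miR-146a E330009J07Rik -2.42, Ephx1 5.72 and Appl2 -4.14. For miR-29a against miR-7a in vehicle they were E330009J07Rik 3.36, Ephx1 2.90 and Appl2 2.03, and with LPS E330009J07Rik 3.44 and Myom3 2.38. Against miR-146a they were E330009J07Rik 3.75, Hyal1 0.76, Dot1l 1.42 and Appl2 2.58 in vehicle, and E330009J07Rik 2.84 and Myom3 1.95 with LPS. For LPS they were Dot1l -3.10 and Ephx1 5.38 in miR-7a cells, Hyal1 1.00, Dot1l 0.13 and Appl2 2.89 in miR-146a cells, Myom3 3.90 and Ephx1 5.43 in scramble cells and Myom3 1.07 in miR-29a cells. The difference between conditions was 0.88 for Appl2.

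Low counts limit Adam19 and Sema4g most, above all in VEH_miR-7a, LPS_miR-7a and LPS_miR-29a, where single libraries hold 1 to 5 counts of Adam19. The unblocked vehicle test of miR-29a called 1 gene of 11500, so a gene missing from it is not shown to be unaffected.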
